A study of Rattus norvegicus with 26 samples.

Results

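Soleus of running high-capacity runner (HCR) rats was compared with soleus of sedentary low-capacity runner (LCR) rats across all expressed genes. Libraries were taken by the group in their description, which gave 5 running HCR and 8 sedentary LCR libraries, 13 of the 26 in the series. All animals were aged females of generation 44 of 2 lines selected for low or high running capacity, fed standard chow. Sedentary rats had no wheel, and the running rats were housed in pairs with a wheel for more than 5 months. The other 13 libraries, 8 of sedentary HCR and 5 of running LCR, entered the same fit and are used for the steps between the extremes. Running rats of both lines formed a separate cohort, 2 to a cage, and the labels name no cage, date or batch. Line, wheel, cohort and cage therefore change together in this comparison and cannot be told apart in it. Nothing in the labels says how far a rat ran.

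Soleus is a postural muscle made mostly of slow, oxidative fibres, with a smaller share of fast oxidative fibres that carry the myosin heavy chain encoded by Myh2. A fibre's speed and fuel use follow from which isoforms of myosin, troponin and the calcium pump it makes, and endurance activity is known to move fibres towards slower isoforms and a higher capacity to burn fat. Selection for running capacity gave lines that differ in endurance without training.

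Total counts ran from 1.1 to 1.82 megacounts in running HCR and from 1.49 to 2.46 megacounts in sedentary LCR libraries. The means were 1.49 and 1.80 megacounts (2-sided exact permutation test over 1287 assignments, p = 0.125). Mitochondrially encoded mRNAs took 3.31% and 3.13% of counts (exact permutation p = 0.423). At these depths a gene at 1 CPM (counts scaled to 1 megacount per library after TMM) rests on few counts. The title of HCR running 5 names LCR and that of LCR running 5 names HCR. At 21 genes that separated the sedentary lines without overlap and at least 2-fold, chosen after the data were seen and without the runners, HCR running 5 lay nearer the sedentary HCR mean at 18 genes and LCR running 5 nearer the LCR mean at 18. Each lay with the line in its description. The library labelled HCR running 4 lay nearer LCR at 8 of the 21 genes, against 2 to 4 in the other running HCR libraries, and at HCR levels at the other 13. Of the 5 runners it alone lay nearer LCR at Prmt1, Ackr4, Acad11, Mycbpap, Zfp136 and LOC102555790. Among these, 0 genes lie between Ackr4 and Acad11 and 4 between LOC102555790 and Mycbpap. LOC102550339, Cyp2j4 and Hook1 also lie close together, so the 21 genes are not all separate loci. At Kcnk2 HCR running 1 and 5 did so too, and at Uchl1 HCR running 1, 3 and 5. Among the sedentary LCR libraries, LCR sedentary 5 had the lowest CPM of Myh2 and Myh7 and the lowest share of titin counts, set apart from the other 7. For some of the results that rest on these libraries, values without them are given as well.

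Running HCR soleus differed from sedentary LCR soleus in a limited set of transcripts. A gene is called where its adjusted p in edgeR's quasi-likelihood test is below 0.05. Of 10064 genes tested, 212 were called (2.11%), 125 higher (1.24%) and 87 lower (0.864%) in running HCR. Among them were 5 of 15 fast-fibre genes, all lower, 6 of 19 glucocorticoid receptor and target genes, 5 of them higher, and 3 of 33 fatty acid genes, all higher. Of the called genes, 37 were at least 2-fold higher and 41 at least 2-fold lower. The median log2 fold change of all genes tested was 0.00. The CPM ranges of both groups did not overlap for 88 called genes, 49 higher and 39 lower, and for 132 of all genes tested (1.31%). The count rests on the line given to 2 libraries: with the line in their titles, 23 genes were called, all of them among the 212. Of 83 called genes examined singly, 15 were called with the title's line, and all 83 kept their sign. These 15 were Pde4d, Nfkbia, Riok1, Cyp2j4, Aldoc, Mylk3, Sbsn, Ccdc77, Flt1, Tsc22d3, Kyat3, Bhlhe40, G3bp2, LOC102550339 and RGD1560124. Leaving out both of those libraries gave 185 calls, and leaving out 3 libraries together, these and HCR running 4, gave 191. A refit that dropped HCR running 4 gave 253, one that dropped LCR sedentary 5 gave 206, and one that dropped HCR running 3 gave 111. These refits called 72, 69 and 48 of the 83 genes examined singly, in that order.

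**Figure D1:**
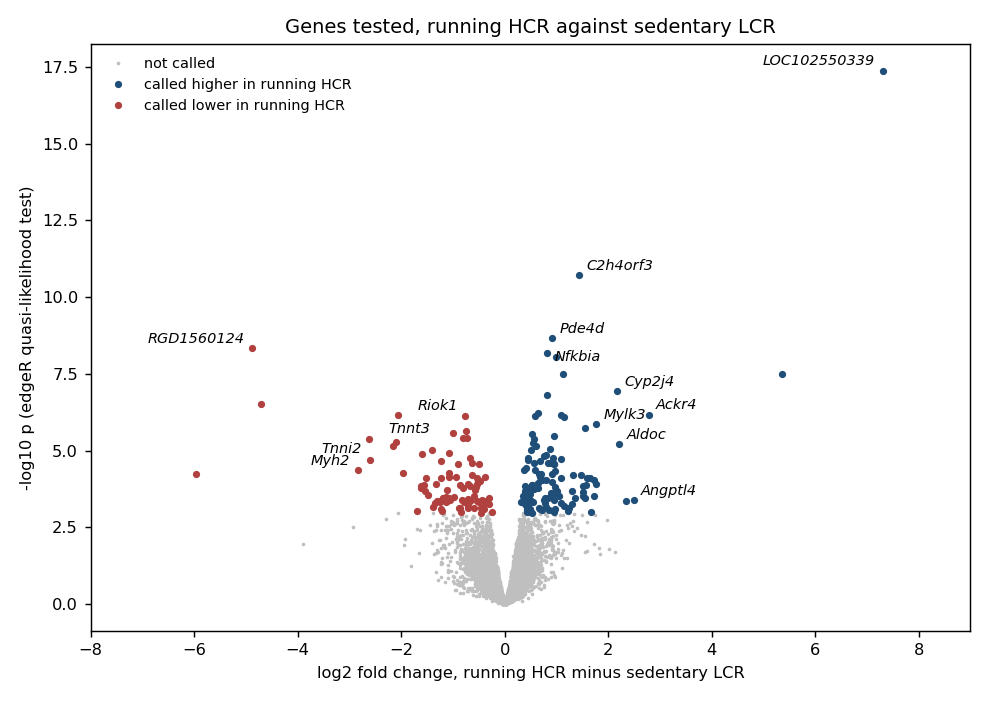
Each point is 1 of 10064 genes, with the log2 fold change of running HCR minus sedentary LCR on the x axis and -log10 of the unadjusted p on the y axis. The 125 called higher genes lie to the right and the 87 called lower to the left, with Myh2, Tnni2 and Tnnt3 among the largest falls of genes with a full symbol and C2h4orf3, Pde4d and Nfkbia among the smallest p-values.

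Several fast-fibre contractile genes fell. Myh2, the myosin heavy chain of fast oxidative fibres, stood at 486, 247, 282, 538 and 613 CPM in HCR running 1 to 5. In sedentary LCR it ranged from 928 to 4829.8 CPM with a median of 2733 CPM. Every running HCR library lay below every sedentary LCR library, and the lowest LCR value, that of LCR sedentary 5, was the nearest to the runners. Group means were 433 ± 161 CPM (SD, n = 5) and 3098 ± 1296 CPM (SD, n = 8), a 7.18-fold lower level in running HCR (log2 fold change -2.84, SE 0.56, adjusted p = 0.00736). Myh2 took 2.2 to 4.71% of the counts of the 4 adult myosin heavy chain genes in running HCR and 8.79 to 28.6% in sedentary LCR. In whole muscle, fewer cells of a type and less RNA per cell cannot be told apart.

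The fast troponin subunits, which set the calcium switch of the thin filament, fell as well. Tnni2, fast troponin I, was at 146, 100.4, 66, 135 and 126 CPM in HCR running 1 to 5 and ranged from 367 to 1047 CPM with a median of 707 CPM in sedentary LCR. Runners were again all below the LCR range (log2 fold change -2.62, SE 0.43, adjusted p = 0.0015). Tnnt3, fast troponin T, was at 303, 181, 192, 445 and 436 CPM against 929 to 1740.2 CPM with a median of 1299.9 CPM. It too showed no overlap (log2 fold change -2.10, SE 0.35, adjusted p = 0.00183). Tnnc2, fast troponin C, was at 1341, 798, 1084, 1545 and 1656 CPM against 1813 to 3177 CPM with a median of 2515 CPM (log2 fold change -0.97, SE 0.23, adjusted p = 0.0239). The thin filament protein tropomyosin 1, Tpm1, was at 491 to 1068 CPM against 1153 to 1987 CPM (log2 fold change -1.05, SE 0.25, adjusted p = 0.0267). Myl10, a myosin regulatory light chain gene, was at 3.11, 0.542, 2.13, 2.48 and 1.02 CPM against 7.87 to 17.5 CPM with a median of 11.6 CPM (log2 fold change -2.61, SE 0.52, adjusted p = 0.00456). Tnnc2, Tpm1 and Myl10 also showed no overlap between the groups. The calls of Myh2, Tnni2, Tnnt3 and Myl10 held in all 26 refits that left out 1 library and were lost with the title's line, as were those of Tnnc2 and Tpm1. There Myh2 stood at -1.17, adjusted p = 0.577, Tnni2 at -1.31, adjusted p = 0.401, Tnnt3 at -1.25, adjusted p = 0.289, and Myl10 at -1.73, adjusted p = 0.172. Without LCR sedentary 5, Myh2 stood at -2.98, adjusted p = 0.0043. The call of Tnnc2 was lost in 2 of 26 refits without 1 library, the largest adjusted p being 0.0855 without HCR running 3. That of Tpm1 was lost in 4 of 26 refits without 1 library, the largest adjusted p being 0.098 without HCR running 3.

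Of 15 fast-fibre genes tested, 5 were called lower and 0 higher, with a median of -0.97 beside 0.00 for all genes. The called members were Myh2, Tnni2, Tnnt3, Tnnc2 and Tpm1. With the title's line 0 were called and the median was -0.63. The list's summed level was 5393 to 9822 CPM in running HCR and 12318 to 18947 CPM in sedentary LCR. The heavy chains of the faster fibre types did not pass. Myh1 stood at -0.99 (SE 0.70, adjusted p = 0.554), with 207, 110.1, 123, 276 and 318 CPM in the runners and 76.8 to 813 CPM in LCR. Myh4 stood at 0.26 (adjusted p = 0.908). Its highest value, 302 CPM in HCR running 2, was well above the other 4 runners, and without that library the difference was -1.20. Parvalbumin (Pvalb, -1.09), the fast calcium pump Atp2a1 (-0.10) and fast alkali light chain Myl1 (0.00) were not called either.

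**Figure D2:**
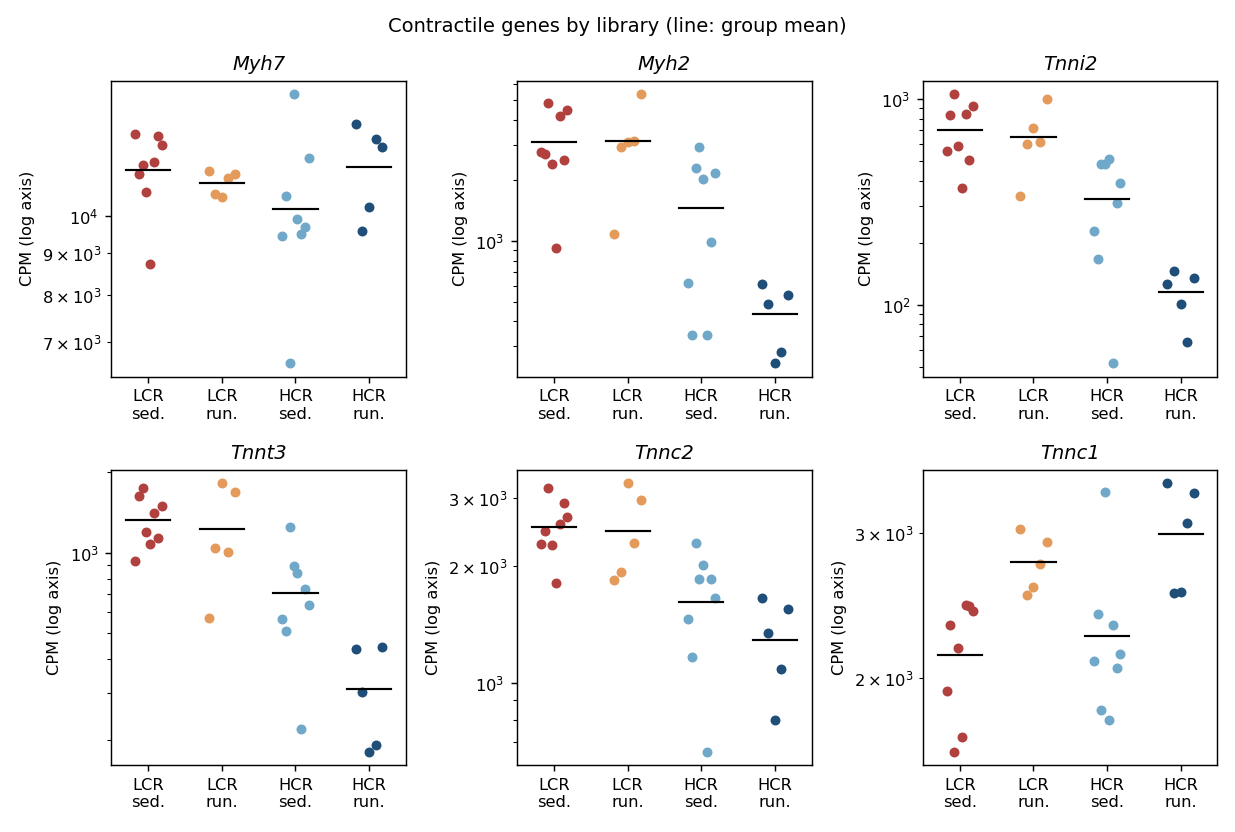
CPM (log axis) of 6 contractile genes in every library of the 4 groups, with the group mean as a line. Running HCR libraries lie below all sedentary LCR libraries for Myh2, Tnni2, Tnnt3 and Tnnc2 and above them for Tnnc1, while Myh7 overlaps.

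Promoter sequence is shown for genes that fell together, from RefSeq on build GRCr8, as the 250 bases before the start site read 5′ to 3′. Of the 212 called genes 155 had such a window by symbol. Capitals mark the muscle E-box CANNTG, bound by myogenic factors, the MEF2-type core (CTA and TAG with any 4 bases between them), the MCAT element CATTCC and the TATA box TATAAA, searched on both strands. Windows are given for Myh2 (chr10:52355489-52355738, plus strand), Tnni2 (chr1:207024240-207024489, plus strand), Tnnc2 (chr3:173935340-173935589, minus strand) and Myl10 (chr12:25619271-25619520, minus strand).
Myh2: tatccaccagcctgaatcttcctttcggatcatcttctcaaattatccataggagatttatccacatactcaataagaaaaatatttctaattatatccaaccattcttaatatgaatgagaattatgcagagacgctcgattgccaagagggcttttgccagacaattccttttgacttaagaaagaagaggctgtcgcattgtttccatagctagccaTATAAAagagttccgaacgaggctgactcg
Tnni2: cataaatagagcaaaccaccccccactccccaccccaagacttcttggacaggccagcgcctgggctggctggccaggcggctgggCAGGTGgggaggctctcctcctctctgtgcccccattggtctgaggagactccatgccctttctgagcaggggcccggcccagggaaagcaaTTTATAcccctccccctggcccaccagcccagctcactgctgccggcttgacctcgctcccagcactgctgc
Tnnc2: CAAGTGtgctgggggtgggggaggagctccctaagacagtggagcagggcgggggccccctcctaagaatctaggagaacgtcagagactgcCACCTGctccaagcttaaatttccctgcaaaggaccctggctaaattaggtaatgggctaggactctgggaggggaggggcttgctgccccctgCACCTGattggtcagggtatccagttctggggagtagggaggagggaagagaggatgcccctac
Myl10: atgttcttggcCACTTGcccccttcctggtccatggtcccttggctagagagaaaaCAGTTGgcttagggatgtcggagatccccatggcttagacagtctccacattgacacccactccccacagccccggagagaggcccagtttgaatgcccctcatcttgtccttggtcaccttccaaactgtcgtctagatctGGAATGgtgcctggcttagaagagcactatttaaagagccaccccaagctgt
The Tnnc2 window held 3 E-boxes, that of Myl10 2 and that of Tnni2 1, while the Myh2 window held 0. An E-box was present in 65.5% of all 33469 windows of this length. The MEF2-type core was in none of the 4 and in 3.4% of all windows. Myl10 held 1 MCAT element, found in 12.1% of all windows, and Myh2 and Tnni2 held 1 TATA box each, found in 12.9%. No matches overlapped. The 4 genes share none of the 4 motifs in this window.

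Slow-fibre genes showed no matching rise. Myh7, the slow myosin heavy chain and the main one of soleus, was at 9596, 10259.6, 12437, 12173 and 12977 CPM in HCR running 1 to 5 and ranged from 8726 to 12611 CPM with a median of 11609 CPM in sedentary LCR, and the groups overlapped (log2 fold change 0.01, SE 0.12, adjusted p = 0.985). Its sign is not fixed, since it was below 0 in 11 of the alternative settings and refits. Of 15 slow-fibre genes tested 1 was called higher and 1 lower (median 0.15). Tnnc1, the troponin C of slow and cardiac muscle, was higher in every runner, at 2538, 2546, 3092, 3357 and 3453 CPM against 1626 to 2453 CPM with a median of 2248 CPM (log2 fold change 0.49, SE 0.13, adjusted p = 0.0268). This call was lost in 6 of 26 refits without 1 library, the largest adjusted p being 0.0973 without HCR running 5. Ankrd2, a stretch-responsive ankyrin repeat protein of slow fibres, was lower, at 312, 209, 141, 303 and 263 CPM against 272 to 863 CPM with a median of 609.7 CPM (log2 fold change -1.35, SE 0.33, adjusted p = 0.0306). It was lost in 7 of 26 refits without 1 library, the largest adjusted p being 0.113 without HCR running 3. Ankrd2 was also lost with the replicate block (adjusted p = 0.0628), and Tnnc1 without both libraries with conflicting titles and without 3 libraries together (adjusted p = 0.0936 to 0.238). The summed slow-fibre level was 42725 to 58479 CPM in running HCR and 38053 to 52021 CPM in sedentary LCR.

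A pair of genes best known from heart rose from low levels. Tnni3, cardiac troponin I, was at 14, 9.76, 11.3, 3.31 and 20.4 CPM against 0.694 to 7.85 CPM with a median of 3.69 CPM, with HCR running 4 inside the LCR range and the other 4 above it (log2 fold change 1.59, SE 0.35, adjusted p = 0.01). Without that library its log2 fold change was 1.81. Mylk3, the cardiac kinase of the regulatory light chain, was at 20.8, 46.1, 50.4, 25.7 and 29.6 CPM against 5.38 to 15.1 CPM with a median of 10.8 CPM, without overlap (log2 fold change 1.77, SE 0.29, adjusted p = 0.000722). Sbk2, a kinase of striated muscle, was also higher (1.48, adjusted p = 0.0088), a call lost without HCR running 3 (adjusted p = 0.0969). Of 26 thin filament and Z-disc genes 0 were called (median -0.02), and of 20 fibre-type and myogenic regulators 0 (median 0.02).

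Genes that act on calcium and second messengers gave the 2 smallest p-values among genes with a full symbol, C2h4orf3 and Pde4d. C2h4orf3, the rat form of C4orf3, encodes a micropeptide that binds the calcium pump of the endoplasmic reticulum. It stood at 96, 94.4, 73.1, 67.1 and 110.4 CPM in HCR running 1 to 5 and 23.6 to 36.7 CPM with a median of 33.3 CPM in sedentary LCR, which left a wide gap between the groups (log2 fold change 1.43, SE 0.15, adjusted p = 9.66e-08). Of 20 calcium handling genes 1 was called lower and 0 higher. That was the calcium release channel Ryr3, at 47.2 to 94 CPM against 68.6 to 126 CPM (log2 fold change -0.55, SE 0.13, adjusted p = 0.015), a call lost without HCR running 2 (adjusted p = 0.0789). The phosphodiesterase Pde4d, which breaks down cyclic AMP, was at 303, 269, 372, 264 and 301 CPM against 142 to 206 CPM with a median of 157 CPM. All 5 runners were above all 8 LCR libraries (log2 fold change 0.92, SE 0.11, adjusted p = 7.32e-06). Its relative Pde4a was at 55.5, 33.1, 44, 42.2 and 54.2 CPM against 15.4 to 31.7 CPM (log2 fold change 0.88, SE 0.17, adjusted p = 0.00254). Pde7a, another cyclic AMP phosphodiesterase, went the other way, at 10.4, 11.4, 9.22, 7.45 and 12.3 CPM against 12.5 to 20.1 CPM (log2 fold change -0.71, SE 0.18, adjusted p = 0.0263), and was lost in 4 of 26 refits without 1 library, the largest adjusted p being 0.0855 without HCR running 3. Of 15 cyclic AMP pathway genes tested these 2 rises and 1 fall were the called ones (median 0.06). Pde4b (0.35) and the kinase subunit Prkaca (0.26) were not called. Rcan2, a calcium-responsive regulator of the phosphatase calcineurin, was at 246, 268, 279, 220.3 and 309 CPM against 148 to 213 CPM with a median of 178 CPM (log2 fold change 0.56, SE 0.10, adjusted p = 0.0015). It was the 1 called gene of 11 in the calcineurin list. Rcan1 stood at -0.59, adjusted p = 0.202. Among other settings, the call of Ryr3 was lost with only the 2 groups fitted (adjusted p = 0.062). That of Pde7a was lost under voom, with no filter, with only the 2 groups fitted and without 3 libraries together (adjusted p = 0.0586 to 0.095).

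**Figure D3:**
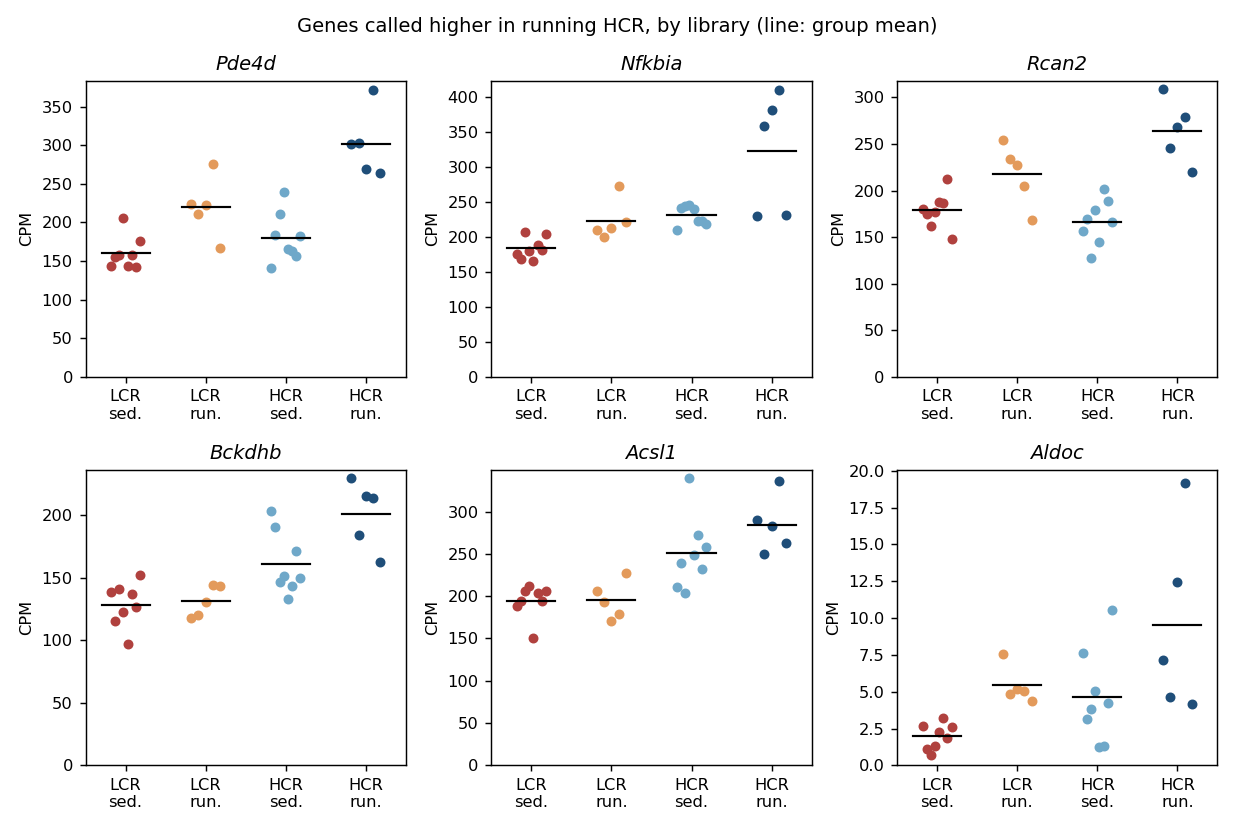
CPM of 6 genes called higher in running HCR, in every library of the 4 groups, with the group mean as a line. All running HCR libraries lie above all sedentary LCR libraries in each panel; for Nfkbia HCR running 4 and 5 lie lower than the other 3 runners.

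Genes of fat handling rose in small numbers, with 31 of 33 members above 0 beside 49.98% of all genes tested. Of the 33 fatty acid uptake and oxidation genes tested, 3 were called higher and 0 lower, with a median of 0.29. Over all settings and refits the median ranged from 0.20 to 0.35. With the title's line it was 0.20 and 0 members were called. The list's summed level was 5195 to 7665 CPM in running HCR and 3482 to 6202 CPM in sedentary LCR, with an LCR median of 5737 CPM. Acsl1, which activates long-chain fatty acids, was at 249.7, 283, 336, 263 and 290.2 CPM against 150.2 to 212 CPM with a median of 199 CPM, without overlap (log2 fold change 0.55, SE 0.10, adjusted p = 0.00183). Without LCR sedentary 5, the lowest LCR library, it stood at 0.50, adjusted p = 0.0041. Eci2, an enoyl-CoA isomerase for unsaturated fatty acids, was at 26, 29.3, 31.9, 18.2 and 32.7 CPM against 8.24 to 20.4 CPM (log2 fold change 0.92, SE 0.20, adjusted p = 0.00862). The third called member, Acad11, encodes an acyl-CoA dehydrogenase and is given with the line genes. The carnitine shuttle gene Cpt1b was not called (0.20, adjusted p = 0.414), nor were Hadha (0.30) and the fat transporter Cd36 (0.11).

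Of 17 lipid droplet and lipolysis genes 2 were called higher (median 0.41), and of 19 PPAR target genes tested 3 (median 0.40), with members shared between these lists. With the title's line 0 members of either list were called. Aqp7, the glycerol channel, was at 6.75, 8.14, 17.7, 6.63 and 17.4 CPM against 1.12 to 5.23 CPM with a median of 3.69 CPM, without overlap (log2 fold change 1.72, SE 0.39, adjusted p = 0.0111). Without HCR running 3 its adjusted p was 0.0779. Angptl4, a secreted inhibitor of lipoprotein lipase, was at 18.2, 12.5, 29.8, 0 and 8.18 CPM against 0 to 6.28 CPM with a median of 0.906 CPM. There 4 runners were above every LCR library, and HCR running 4 was listed at 0 (log2 fold change 2.49, SE 0.61, adjusted p = 0.027). Without HCR running 4 it stood at 2.78, adjusted p = 0.00356, and the call was lost in 5 of 26 refits without 1 library, the largest adjusted p being 0.135 without HCR running 3. It was also lost in DESeq2, under voom, with no filter, with only the 2 groups fitted and with the replicate block (adjusted p = 0.0699 to 0.233). The lipid droplet protein Plin5 (0.92, adjusted p = 0.075) and the kinase Pdk4, which holds glucose carbon out of the tricarboxylic acid cycle (1.08, adjusted p = 0.244), did not pass. Pdk4 was at 88.2, 145, 163, 35.6 and 111 CPM in the runners, with HCR running 4 the lowest, against 10.5 to 100.5 CPM. Outside the lists, the peroxisomal fatty acid transporter Abcd2 was higher (0.66, adjusted p = 0.00862, but 0.0669 without HCR running 3), as was the peroxisomal reductase Pecr (0.81, adjusted p = 0.0382), which was lost in 9 of 26 refits without 1 library, the largest adjusted p being 0.116 without HCR running 5. Pecr was also lost under voom, with no filter, with only the 2 groups fitted, without both libraries with conflicting titles, with the replicate block and without 3 libraries together (adjusted p = 0.0598 to 0.179).

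Branched-chain amino acid breakdown held 2 called rises among 13 genes tested (median 0.19). Bckdhb, a subunit of the complex that commits these amino acids to oxidation, was at 184, 216, 214, 163 and 229.9 CPM against 97 to 152 CPM with a median of 132 CPM, without overlap (log2 fold change 0.65, SE 0.11, adjusted p = 0.000432). Ppm1k, the phosphatase that activates the same complex, was also higher (log2 fold change 0.70, SE 0.15, adjusted p = 0.00862; chosen after its values were seen). Acadsb, the short branched-chain acyl-CoA dehydrogenase, was at 17.6, 55.9, 56, 25.7 and 35.8 CPM against 15 to 28.7 CPM, with HCR running 1 and 4 inside the LCR range (log2 fold change 0.95, SE 0.24, adjusted p = 0.0267). This call was lost in 4 of 26 refits without 1 library, the largest adjusted p being 0.135 without HCR running 3. It was also lost under voom, with no filter, with only the 2 groups fitted and with the replicate block (adjusted p = 0.0643 to 0.125). The other complex subunits stood at 0.19 for Bckdha and 0.48 for Dbt. Clybl, a mitochondrial lyase of the C5 pathway of citramalyl-CoA, was at 46.2, 39.6, 61.7, 32.3 and 55.2 CPM against 16.8 to 30.3 CPM (log2 fold change 1.09, SE 0.18, adjusted p = 0.000432). Kyat3, which can turn kynurenine into kynurenic acid, was at 22.8, 23.9, 31.2, 18.2 and 23.5 CPM against 5.99 to 16.2 CPM (log2 fold change 0.89, SE 0.18, adjusted p = 0.00498), the 1 called gene of 3 kynurenine aminotransferases tested.

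Few glucose and mitochondrial genes were called. Aldoc, the brain-type aldolase, was the 1 called gene of 24 glycolysis and glycogen genes, at 4.67, 12.5, 19.2, 4.14 and 7.15 CPM against 0.694 to 3.23 CPM with a median of 2.06 CPM (log2 fold change 2.21, SE 0.42, adjusted p = 0.00197). Aldoa, another aldolase of the list, had 0 counts in both groups, so the rise does not speak for aldolase as a whole. Whether that 0 reflects absent Aldoa RNA or the way reads were assigned to genes was not tested. The lists of lactate handling and of tricarboxylic acid cycle genes each had 1 called rise, Ldhd, a lactate dehydrogenase of mitochondria (0.68, adjusted p = 0.0402), and Fh, fumarase (0.67, adjusted p = 0.00465). The call of Ldhd was lost in 12 of 26 refits without 1 library, the largest adjusted p being 0.124 without HCR running 3. It was also lost under voom, without both libraries with conflicting titles and without 3 libraries together (adjusted p = 0.0529 to 0.0625). The lactate exporter Slc16a3 was not called (-1.95, adjusted p = 0.172), with LCR libraries spread over 2.25 to 30.5 CPM. Of the 36 subunits of complex I, 13 of complexes II and III, 14 of complex IV and 16 of complex V, 0 were called. Their medians were 0.13, 0.14, 0.18 and 0.14, with 30, 11, 12 and 14 members above 0. The 72 mitochondrial ribosome genes tested (median 0.13) and the 13 mitochondrially encoded mRNAs (median 0.11) had 0 called as well. Of these, 60 and 10 were above 0, beside 49.98% of all genes tested. Cs, citrate synthase, a common gauge of mitochondrial content, stood at log2 fold change 0.15, SE 0.08, adjusted p = 0.395, and Ppargc1a, the co-activator of mitochondrial biogenesis, at log2 fold change 0.45, SE 0.17, adjusted p = 0.179. For Ppargc1a HCR running 2 was inside the LCR range of 27.4 to 43.1 CPM and the other 4 runners above it, up to 54.7 CPM.

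Targets of the glucocorticoid receptor were the list with the most called rises. Of 19 genes tested 5 were called higher and 1 lower, and the median was 0.46. Nfkbia, the inhibitor that holds NF-kappa B in the cytoplasm, was at 359, 381, 410.0, 230.2 and 229.9 CPM in HCR running 1 to 5 and 165 to 206 CPM with a median of 180.2 CPM in sedentary LCR. All runners were above all LCR libraries, with HCR running 4 and 5 nearest to them (log2 fold change 0.82, SE 0.11, adjusted p = 1.36e-05). The other rises were the transcriptional regulator Tsc22d3 (log2 fold change 0.57, SE 0.12, adjusted p = 0.00498), the phosphoinositide kinase subunit Pik3r1 (log2 fold change 0.46, SE 0.09, adjusted p = 0.00412), the mTOR inhibitor Ddit4 (log2 fold change 1.52, SE 0.36, adjusted p = 0.0191) and glutamine synthetase Glul (log2 fold change 0.43, SE 0.11, adjusted p = 0.0217). Ddit4 was at 33.7, 19.5, 15.6, 5.8 and 13.3 CPM against 2.5 to 15.3 CPM with a median of 5.06 CPM. Without HCR running 1, the calls of Ddit4 (adjusted p = 0.116) and Glul (adjusted p = 0.126) were lost. Ddit4 was also lost with no filter, with only the 2 groups fitted and with the replicate block (adjusted p = 0.0535 to 0.0657). Glul was also lost with only the 2 groups fitted, without both libraries with conflicting titles and with the replicate block (adjusted p = 0.0543 to 0.066). With the title's line 2 of the 5 rises, Nfkbia and Tsc22d3, were called. Fkbp5 (0.64, adjusted p = 0.242), Klf15 (0.51, adjusted p = 0.17) and the receptor Nr3c1 itself (-0.12, adjusted p = 0.563) were not called. The fall was the phosphatase Dusp1 (log2 fold change -0.88, SE 0.23, adjusted p = 0.0394), lost in 7 of 26 refits without 1 library, the largest adjusted p being 0.121 without HCR running 1. It was also lost under voom, with no filter and with only the 2 groups fitted (adjusted p = 0.0829 to 0.174).

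The promoter window of Nfkbia (chr6:78597073-78597322, minus strand, GRCr8) is shown because NF-kappa B itself acts on this gene, with matches to GGGA and CC with any 4 bases between them (kappa B type), on either strand, in capitals.
Nfkbia: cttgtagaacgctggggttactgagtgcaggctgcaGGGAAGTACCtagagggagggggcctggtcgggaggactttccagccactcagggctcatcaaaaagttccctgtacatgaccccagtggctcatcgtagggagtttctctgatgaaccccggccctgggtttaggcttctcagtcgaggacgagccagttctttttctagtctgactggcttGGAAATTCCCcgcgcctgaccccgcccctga
It held 2 matches, and 16.4% of all windows held at least 1.

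Early response and chaperone genes were mostly below 0, at 15 of 20 immediate early, 14 of 20 heat shock and 15 of 20 endoplasmic reticulum genes. Of all genes tested, 49.98% were above 0. Of 20 immediate early genes tested 2 were called lower (median -0.17), Dusp1 and the AP-1 subunit Jund, at 170.3, 184, 158, 268 and 218 CPM against 246 to 333 CPM (log2 fold change -0.54, SE 0.12, adjusted p = 0.0137). Of 20 heat shock genes 1 was called lower, Hspa1a (-0.71, adjusted p = 0.0365), whose near-identical copy makes its counts uncertain, and 1 higher, the mitochondrial chaperonin Hspd1 (0.32, adjusted p = 0.0291). Hspa5, the chaperone BiP of the endoplasmic reticulum, fell (-0.41, adjusted p = 0.0334) as the 1 called gene of 20 in its list (median -0.15). Each of these 3 calls was lost in some of 26 refits without 1 library, Hspa1a in 7, Hspd1 in 9 and Hspa5 in 6. The largest adjusted p was 0.147 for Hspa1a and 0.14 for Hspa5, both without HCR running 3. For Hspd1 it was 0.0896, without HCR running 5. Hspa1a was also lost under voom, without both libraries with conflicting titles and without 3 libraries together (adjusted p = 0.0647 to 0.0751). Hspd1 was also lost with no filter, with only the 2 groups fitted, without both libraries with conflicting titles and without 3 libraries together (adjusted p = 0.0644 to 0.117), and Hspa5 without both libraries with conflicting titles, with the replicate block and without 3 libraries together (adjusted p = 0.0532 to 0.0808). Bhlhe40, a clock repressor, was lower (-0.87, adjusted p = 0.0137), the 1 called gene of 16 clock genes. Jund and Bhlhe40 were lost without HCR running 3, each at adjusted p = 0.0745. The proteasome list had 0 called of 31, and the atrophy list 1 of 16, Ddit4. The stress granule protein G3bp2 (log2 fold change 0.58, SE 0.10, adjusted p = 0.000432) was higher, and Sav1, a scaffold of the Hippo kinases, was lower (log2 fold change -0.72, SE 0.17, adjusted p = 0.0137). The call of Sav1 was lost without HCR running 3 (adjusted p = 0.0793). G3bp2 and Sav1 were chosen after their values were seen.

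Several of the largest differences were genes at which the sedentary lines also differed. Ackr4, a scavenger receptor for chemokines, was at 5.71, 5.42, 10.6, 1.66 and 11.2 CPM in HCR running 1 to 5 against 0 to 2.08 CPM with a median of 0.934 CPM (log2 fold change 2.79, SE 0.46, adjusted p = 0.000432). Its neighbour Acad11 was at 14.5, 18.4, 14.9, 5.8 and 17.4 CPM against 3.12 to 7.4 CPM with a median of 4.3 CPM (log2 fold change 1.55, SE 0.27, adjusted p = 0.000915). HCR running 4 alone lay inside the LCR range at both, and without it the differences were 3.01 and 1.73. No gene lies between them in the RefSeq annotation of GRCr8. Prmt1, a protein arginine methyltransferase, was at 5.19, 3.8, 2.84, 76.2 and 0 CPM in HCR running 1 to 5 against 5.76 to 134 CPM with a median of 91.5 CPM, the lowest being LCR sedentary 8. With the high value of HCR running 4 it was not called (-2.29, adjusted p = 0.0678), and without that library it stood at -4.54, adjusted p = 0.000331. Among genes without a full symbol, LOC102550339 was at 23.9, 44.5, 50.4, 19.9 and 26.6 CPM in the runners and at most 0.694 CPM in LCR (adjusted p = 4.19e-14). LOC102555790 was at 11.9, 8.68, 4.26, 0 and 18.4 CPM and at most 0.749 CPM in LCR (adjusted p = 3.97e-05). RGD1560124 was at most 0.709 CPM in the runners and 5.03 to 22 CPM in LCR (adjusted p = 1.15e-05). No fold change is given for these 3, since 1 side rests on a few counts. They were chosen after their values were seen.

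Cyp2j4, a cytochrome P450 that oxidises arachidonic acid, was higher (log2 fold change 2.16, SE 0.33, adjusted p = 0.00013), and lies 13 genes from LOC102550339. Usp11, a ubiquitin protease, was at 38.9, 41.8, 59.6, 62.1 and 59.3 CPM, against 6 LCR libraries of 1.87 to 3.75 CPM and LCR sedentary 1 and 4 at 21.1 and 47.1 CPM (log2 fold change 2.35, SE 0.57, adjusted p = 0.028). Its call was lost in 8 of 26 refits without 1 library, the largest adjusted p being 0.0793 without HCR running 3. It was also lost with only the 2 groups fitted, without both libraries with conflicting titles, with the replicate block and without 3 libraries together (adjusted p = 0.0633 to 0.123). Serhl2, a serine hydrolase-like gene, stood at 147, 140.0, 168, 197 and 164 CPM against 16.2 to 109.6 CPM (log2 fold change 1.72, SE 0.40, adjusted p = 0.0233), and its call was lost without HCR running 3 (adjusted p = 0.0629). Other settings ended it with only the 2 groups fitted and without 3 libraries together (adjusted p = 0.0665 to 0.095). Pagr1, a partner of histone methyltransferase complexes (log2 fold change 0.99, SE 0.13, adjusted p = 1.47e-05), and Pgap4, which works on glycolipid anchors (log2 fold change 1.12, SE 0.16, adjusted p = 3.97e-05), were higher without overlap. Riok1, a kinase of ribosome maturation, was lower without overlap, at 35.3, 36.3, 46.1, 45.6 and 49.1 CPM against 50.4 to 81.6 CPM (log2 fold change -0.77, SE 0.13, adjusted p = 0.000432). Reep6, which shapes endoplasmic reticulum membrane (1.55), and the glutamate receptor subunit Gria4 (1.67) were the other named rises. The call of Reep6 was lost in 3 of 26 refits without 1 library, the largest adjusted p being 0.124 without HCR running 3. That of Gria4 was lost in 17 of 23 refits without 1 library, the largest adjusted p being 0.286 without HCR running 2. Other settings ended that of Reep6 under voom, with no filter, without both libraries with conflicting titles, with the replicate block and without 3 libraries together (adjusted p = 0.0552 to 0.077). Gria4 was lost with upper-quartile factors, under voom and with the replicate block (adjusted p = 0.0525 to 0.0989).

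Among the other named falls, the secreted epithelial protein suprabasin (Sbsn) was at 0.519, 1.08, 2.13, 0.828 and 3.07 CPM against 3.37 to 9.05 CPM (log2 fold change -2.17, SE 0.41, adjusted p = 0.00222). The membrane protease Adam33 was at 3.55 to 6.13 CPM against 7.87 to 18.8 CPM (log2 fold change -1.56, SE 0.36, adjusted p = 0.0141), and the schlafen gene Slfn4, of immune cells, at 0.828 to 8.51 CPM against 9.36 to 29.6 CPM (log2 fold change -1.61, SE 0.37, adjusted p = 0.0145). These 3 did not overlap. Ptn, a heparin-binding growth factor, was at 1.04, 3.8, 2.13, 0.828 and 3.07 CPM against 2.5 to 9.02 CPM (log2 fold change -1.53, SE 0.34, adjusted p = 0.0101). Akr1b10, an aldo-keto reductase (-1.31), Aox1, an aldehyde oxidase (-1.70), Slamf7, a receptor of immune cells (-1.49), and Ccdc77 (-1.26) were lower with overlap. Refits without 1 library ended these calls in 2, 13, 3 and 5 of 26 cases, at the highest adjusted p without HCR running 2 for Akr1b10 (0.106) and Aox1 (0.147) and without HCR running 3 for Slamf7 (0.0687) and Ccdc77 (0.124). Adam33 was lost without HCR running 3 (0.0624) and Ptn without HCR running 1 (0.0514). Among other settings, Slfn4 was lost under voom and without 3 libraries together (adjusted p = 0.0591 to 0.0847). Ptn was lost under voom and without 3 libraries together (adjusted p = 0.0503 to 0.0587), and Ccdc77 under voom and with only the 2 groups fitted (adjusted p = 0.0749 to 0.0854). Slamf7 was lost under voom, without both libraries with conflicting titles and without 3 libraries together (adjusted p = 0.0603 to 0.114). Aox1 was lost under voom, with only the 2 groups fitted, without both libraries with conflicting titles, with the replicate block and without 3 libraries together (adjusted p = 0.06 to 0.0952).

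Vascular genes moved in both directions. Of 16 endothelial markers 1 was called higher and 1 lower (median -0.11), and their summed level was 835 to 1032 CPM in running HCR and 792 to 1085 CPM in sedentary LCR. Vwf, the clotting factor stored in endothelial cells, was at 18.2, 22.2, 9.93, 12.4 and 7.15 CPM against 18.5 to 33.3 CPM with a median of 25.3 CPM (log2 fold change -0.79, SE 0.20, adjusted p = 0.0282). Flt1, a receptor for vascular growth factor, was at 136, 165, 169, 186 and 121 CPM against 100.5 to 135 CPM with a median of 116 CPM (log2 fold change 0.43, SE 0.12, adjusted p = 0.0477). The call of Vwf was lost in 5 of 26 refits without 1 library, the largest adjusted p being 0.124 without HCR running 3. That of Flt1 was lost in 15 of 26 refits without 1 library, the largest adjusted p being 0.14 without HCR running 3. Esm1, a proteoglycan of endothelial tip cells, was lower, at 11.9, 28.8, 14.9, 14.9 and 55.2 CPM against 44.3 to 123 CPM with a median of 58.2 CPM, with HCR running 5 apart from the other 4 (log2 fold change -1.55, SE 0.35, adjusted p = 0.0183). Its call was lost without HCR running 1 (adjusted p = 0.0641) and without HCR running 3 (adjusted p = 0.0781). Sox17, an arterial transcription factor, was lower too (-1.20, adjusted p = 0.025), and lost in 3 of 26 refits without 1 library, the largest adjusted p being 0.107 without HCR running 3. Among other settings, Vwf was lost under voom, with only the 2 groups fitted, without both libraries with conflicting titles and without 3 libraries together (adjusted p = 0.0537 to 0.2). Flt1 was lost with upper-quartile factors, under voom, with the replicate block and without 3 libraries together (adjusted p = 0.0654 to 0.0897). Sox17 was lost under voom, with only the 2 groups fitted, without both libraries with conflicting titles, with the replicate block and without 3 libraries together (adjusted p = 0.0518 to 0.125), and Esm1 with only the 2 groups fitted (adjusted p = 0.0893). Vegfa itself stood at log2 fold change -0.23, SE 0.16, adjusted p = 0.52.

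Markers of other cells in the tissue had few or no calls. Macrophage markers had 0 called of 17 tested and a median of 0.34, with a summed level of 456 to 662 CPM in running HCR and 307 to 524 CPM in sedentary LCR. The lists of collagen and matrix genes (31 tested, median -0.20), interferon response genes (19, -0.20), adipocyte (7, -0.01), Schwann cell (5, -0.02) and satellite cell markers (6, -0.11) also had 0 called. The matrix median was 0.22 from sedentary LCR to sedentary HCR and -0.43 from sedentary to running HCR. Ifi44, an interferon-induced gene outside the list, was lower without overlap (log2 fold change -1.07, SE 0.23, adjusted p = 0.00862). Lymphocyte markers summed to 6.13 to 13 CPM and 6.28 to 12.8 CPM, with Ms4a1 at 0 in both groups, and erythroid genes to 52.9 to 428 CPM and 174 to 320.4 CPM.

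Cytosolic ribosomal protein genes had 2 called rises and 3 called falls among 77 (median -0.04). Rpl10a was at 121, 121, 103, 118 and 72.6 CPM against 12.5 to 86.6 CPM with a median of 18.7 CPM (log2 fold change 1.58, SE 0.34, adjusted p = 0.0137), and Rps28 was higher (0.41, adjusted p = 0.00637). Rpl19 (-0.50, adjusted p = 0.00498) and Rpl6 (-0.54, adjusted p = 0.0101) were lower. Rpl6 was lost without HCR running 3 (adjusted p = 0.0646). Rpl10a was lost with only the 2 groups fitted (adjusted p = 0.146), Rpl19 without 3 libraries together (adjusted p = 0.0931) and Rpl6 without 3 libraries together (adjusted p = 0.0881). Near-identical copies of such genes exist across the genome, so the counts of single members are uncertain.

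**Figure D4:**
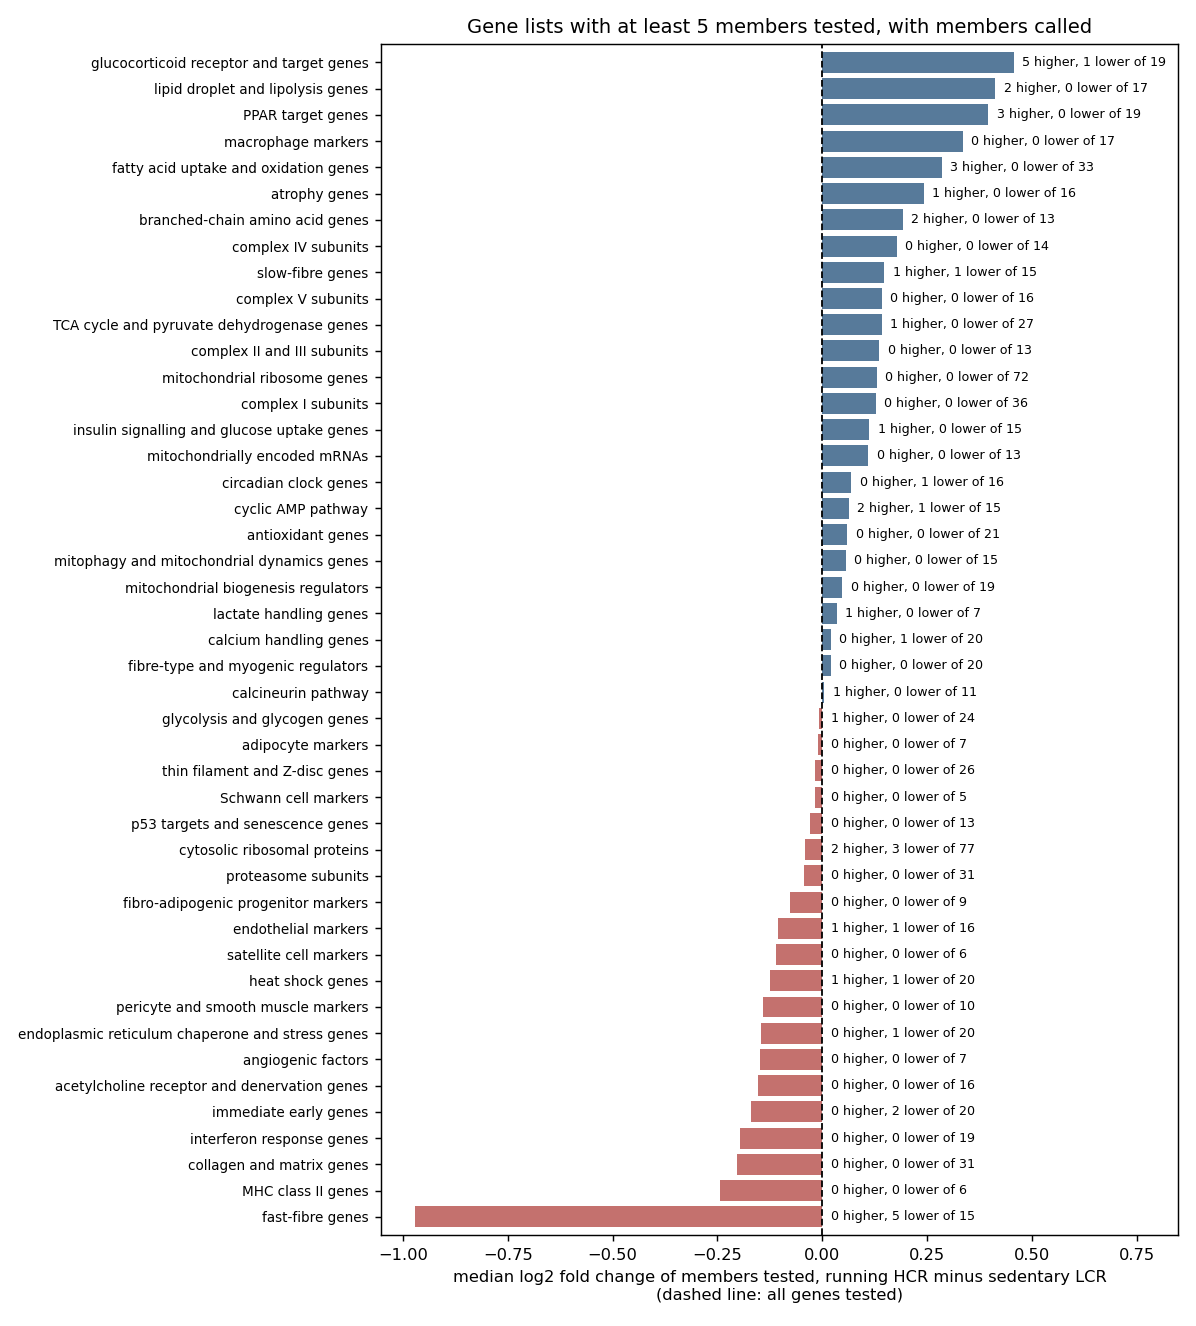
Median log2 fold change of the tested members of each gene list with at least 5 members tested, running HCR minus sedentary LCR, with the number called beside each bar and the median of all genes as a dashed line. Fast-fibre genes have the lowest median (-0.97, 5 called lower) and glucocorticoid receptor and target genes the highest (0.46, 5 called higher and 1 lower).

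The difference between the extremes is the sum of 2 steps, line and running, taken through sedentary HCR or through running LCR. Running rats were a separate cohort housed 2 to a cage, so each running step also changes cohort and cage. The wheel's part in that step cannot be told apart from theirs. From sedentary LCR to sedentary HCR 274 genes were called (2.72%), with 1601 at an unadjusted p under 0.05 in edgeR's test. The step from sedentary to running HCR had 10 called (0.0994%) and 1262 at an unadjusted p under 0.05 in that test. DESeq2 called 79 for it, and refits called 38 without HCR sedentary 4 and 4 without HCR running 3. Sedentary to running LCR had 0 called (612 at an unadjusted p under 0.05), and running LCR to running HCR 63 (0.626%, 863 at an unadjusted p under 0.05). Steps compare groups of 8 or 5 libraries, so their counts are not on an equal footing. These steps share libraries with the main comparison, so their values are set side by side with no count of overlap. For Myh2 the route through sedentary HCR gave -1.08 (SE 0.44) for the line step and -1.76 (SE 0.53) for the running step, and that through running LCR 0.01 (SE 0.49) for the running step and -2.86 (SE 0.59) for the line step. Tnni2 gave -1.11 (SE 0.33) for the line step and -1.51 (SE 0.42) for the running step, then -0.11 (SE 0.38) for the running step and -2.51 (SE 0.46) for the line step. Mean Myh2 was 3129 ± 1511 CPM (SD, n = 5) in running LCR and 1465 ± 1007 CPM (SD, n = 8) in sedentary HCR. For both genes the sedentary HCR mean lay between those of the extremes. Sedentary HCR libraries were spread widely, over 341 to 2921 CPM for Myh2. The difference between the lines' running steps was not called for Myh2 (adjusted p = 0.835), nor for any of the 10064 genes, of which 592 had an unadjusted p under 0.05.

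Other genes placed the steps differently. Pde4d gave 0.17 (SE 0.10) for the line step and 0.75 (SE 0.11) for the running step through sedentary HCR and 0.46 (SE 0.12) for the running step and 0.45 (SE 0.13) for the line step through running LCR. Rcan2 gave -0.10 (SE 0.09) for the line step and 0.67 (SE 0.10) for the running step, then 0.29 (SE 0.10) for the running step and 0.27 (SE 0.12) for the line step. Acsl1 gave 0.37 (SE 0.09) for the line step and 0.18 (SE 0.10) for the running step, then 0.01 (SE 0.10) for the running step and 0.54 (SE 0.12) for the line step. Tsc22d3 gave 0.27 (SE 0.10) for the line step and 0.29 (SE 0.12) for the running step, then 0.61 (SE 0.12) for the running step and -0.05 (SE 0.13) for the line step, and running rats had means of 88.6 CPM in HCR and 92.1 CPM in LCR. C2h4orf3 gave 1.09 (SE 0.13) for the line step and 0.34 (SE 0.14) for the running step, then -0.02 (SE 0.16) for the running step and 1.45 (SE 0.17) for the line step. Angptl4 gave 0.28 (SE 0.68) for the line step and 2.21 (SE 0.58) for the running step through sedentary HCR. Through running LCR it gave -1.69 (SE 1.10) for the running step and 4.18 (SE 0.89) for the line step. Running LCR was the lowest of the 4 groups at 0.682 CPM, with 0 to 3 counts per library. The steps through running LCR therefore rest on a few counts for this gene.

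**Figure D5:**
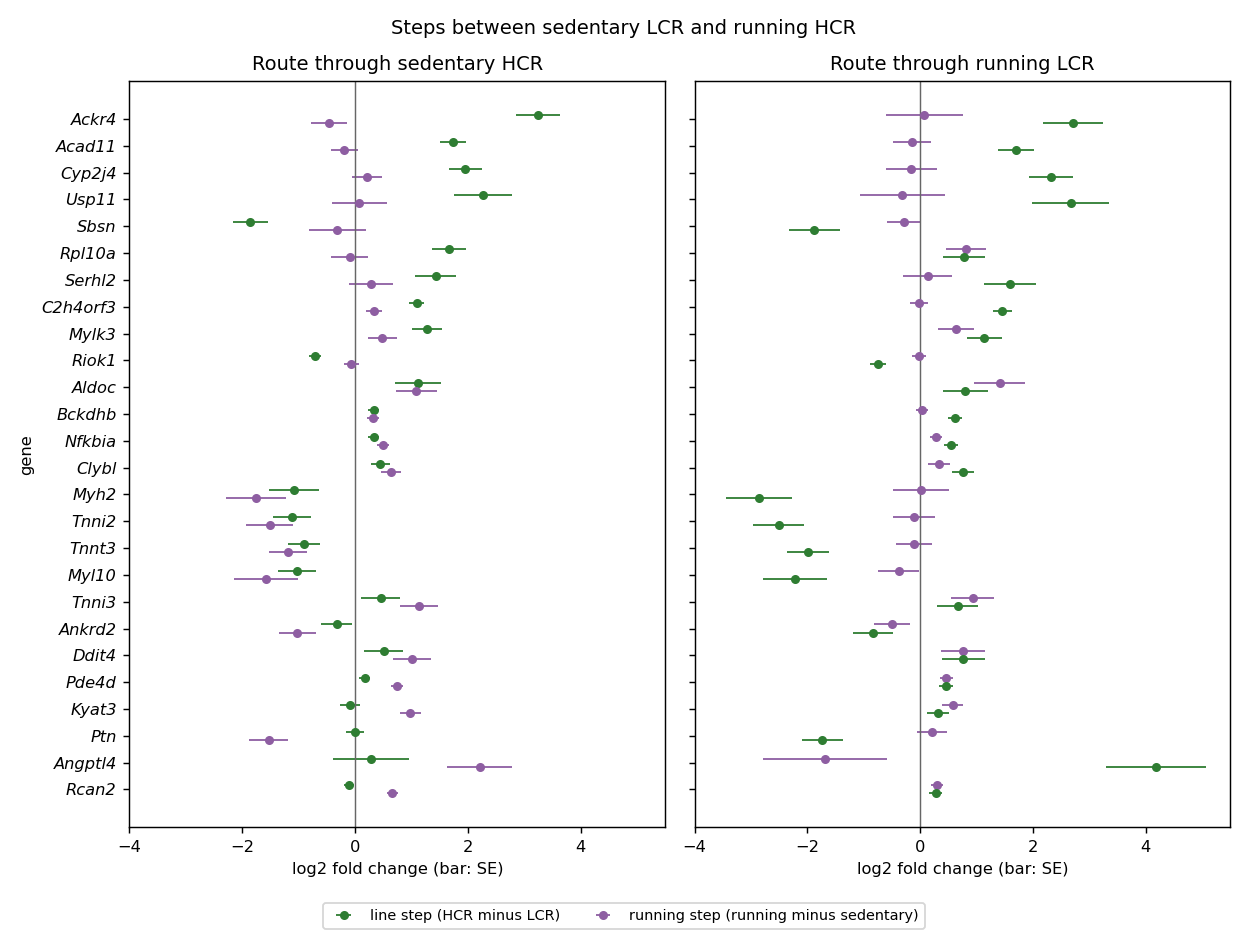
Line steps (HCR minus LCR, green) and running steps (running minus sedentary, purple) of 26 genes as log2 fold changes with SE bars, on the route through sedentary HCR (left) and through running LCR (right). Running steps also change cohort and cage. Ackr4, Acad11, Cyp2j4 and Sbsn have a larger line step than running step on both routes, while for Myh2 and Tnni2 both steps are below 0 on the left, and on the right the running step is within 1 SE of 0.

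Whether an intermediate group lay nearer 1 extreme was tested against the midpoint of both. Sedentary HCR differed from the midpoint at 36 genes (0.358%), of which 19 had a sedentary HCR mean above both extremes and 16 below both. The remaining gene was LOC102550339, at 15.3 CPM in sedentary HCR, between its extremes. Ackr4 (adjusted p = 0.000613) and Acad11 (adjusted p = 0.0098) were above the running HCR mean, at 9.34 and 16.7 CPM. The running HCR means were 6.93 and 14.2 CPM, with HCR running 4 at 1.66 and 5.8 CPM. The other runners, at 5.42 to 11.2 and 14.5 to 18.4 CPM, span the sedentary HCR means. LOC102555790 and Prmt1, also counted beyond both extremes, had HCR running 4 at 0 and 76.2 CPM. The place of these genes beyond running HCR thus rests in part on that library. Ryr3, at 53.2 CPM, was below both extremes (adjusted p = 0.000596), as was Rcan2, at 167 CPM (adjusted p = 0.0239). Lmod3, a nucleator of thin filaments that was not called between the extremes (0.16, adjusted p = 0.444), was lowest in sedentary HCR, at 552 CPM against 726, 813 and 812 CPM in sedentary LCR, running LCR and running HCR (adjusted p = 0.00103). The fibre-type genes Myh2, Tnni2 and Tnnt3 had adjusted p of 0.754, 0.832 and 0.868, with differences from the midpoint of 0.34 (SE 0.39), 0.20 (SE 0.31) and 0.14 (SE 0.26). Running LCR differed from the midpoint at 0 genes in edgeR's test, with 584 at an unadjusted p under 0.05, and at 1 gene in DESeq2. Its difference from the midpoint was 1.44 (SE 0.44) for Myh2 and 0.01 (SE 0.11) for Pde4d. The count of 36 was 107 without LCR sedentary 5, 95 without HCR running 1 and 85 without HCR sedentary 4.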

How the data were processed

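Per the labels' protocols, first-strand synthesis used oligo(dT) and reads were single-end. Whether counts come from 3′ ends only or also grow with transcript length was not tested. Titin took 7.37 to 10.6% of counts in running HCR and 8.02 to 9.77% in sedentary LCR libraries. The authors deposited whole-number counts per gene for 34034 genes, not normalised. Tools listed in the submitters' processing notes are STAR, featureCounts, cutadapt, UMI-tools, MultiQC and FastQC, with the assembly mRatBN7.2. Versions, use of strand and collapsing of molecular identifiers are not given in the sources used here, so overlapping genes and near-identical copies are uncertain. The labels do not say that libraries came from separate animals, so p-values measure the spread between libraries; 0 columns belonged to no sample.

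Tests used edgeR 4.0.16 (R 4.3.3): TMM scaling, filterByExpr by group, robust quasi-likelihood F tests and Benjamini-Hochberg adjustment over 10064 genes at 0.05, with all 26 libraries in 1 fit of 4 groups. SE is the size of the log2 fold change over the square root of F. DESeq2 1.42.0, limma 3.58.1 voom with quality weights, other scalings, other filters, line by title, a replicate block and leaving out libraries were alternatives. In simulated counts for this comparison over 9901 genes, 34% of 1.5-fold, 84% of 2-fold, 92% of 3-fold and 100% of 4-fold changes were recovered, with 2 false among 157 calls. These counts were drawn for each gene separately, with no outlying or mislabelled library. The shares therefore do not cover such libraries, and the share of false calls in the real data is not known from them. No pair of libraries of a group agreed within sampling noise.

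The comparison, the 51 gene lists (966 of 969 entries matched) and the naming rule were chosen with earlier results of these data known. The rule takes the 14 largest called rises and 14 falls among genes with a full symbol whose average log2 CPM reaches 2, the 10 smallest adjusted p, up to 4 called members of each list with at least 2 called, and a panel of 13 genes. Genes named beyond it, among them Tpm1, Kyat3, Ldhd, Fh, Ryr3, Hspa5, Bhlhe40, Glul, Abcd2, Pecr, Sbk2, Sox17, Ifi44, Lmod3 and Prmt1, were chosen after their values were seen. Some members of the lists are not reported here. Promoter windows are from RefSeq (GRCr8) and were matched by symbol.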

Additional observations from a re-analysis of the deposited data

Results flagged for a closer look

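In 202 checks of a gene or library measure within 1 group, 15 found the highest or lowest library set apart by more of the group's range than Dixon's 95% limit (7.43%, where chance gives about 1 in 20). Of these 15, 7 concerned LCR sedentary 5. It held the lowest sedentary LCR value of Myh2 (928 CPM), Myh7 (8726 CPM), Acsl1 (150.2 CPM), Cpt1b (281 CPM), Kyat3 (5.99 CPM) and of the titin share of counts (8.02%), and the only nonzero one of LOC102555790 (0.749 CPM). Other libraries stood apart at 1 gene each. In sedentary LCR these were LCR sedentary 8 at Prmt1 (5.76 CPM), LCR sedentary 1 at LOC120095255 (0.541 CPM), LCR sedentary 3 at C2h4orf3 (23.6 CPM) and LCR sedentary 7 at Ptn (2.50 CPM). In running HCR these were the library labelled HCR running 4 at Acad11 (5.80 CPM), HCR running 5 at Hspd1 (298 CPM), HCR running 3 at Sav1 (10.6 CPM) and HCR running 1 at LOC108349628 (0.519 CPM, 1 count). No named gene had running steps of opposite direction without overlap in the 2 lines.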

How the results depend on the processing

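Of 212 called genes, 210 were also called by DESeq2 (274 in all), 155 by voom with quality weights (160), 146 with the replicate block (175) and 145 with only the 2 groups fitted (159). Other scalings gave 213, of which 53.5% were higher with upper-quartile factors against 59.0%. Under voom 56 genes were called lower. With the title's line 23 were called, 16 higher and 7 lower. Leaving out 1 library gave 111 to 253 genes, 71 to 142 higher and 40 to 111 lower, the lowest counts without HCR running 3. Leaving out HCR running 4, HCR running 5 and LCR running 5 together, chosen after seeing the data, gave 191. Sedentary HCR differed from the midpoint at 84 genes by DESeq2 and 56 by voom, and at 24 to 107 without 1 library. Running LCR differed at 1 gene by DESeq2, 4 with no filter, 1 with the replicate block and 0 to 3 without 1 library. Same-numbered libraries did not deviate together (correlations -0.10 to 0.03). This gave no sign that numbers pair animals, but it cannot exclude pairing. Of 83 named called genes 12 kept the call in every setting, 41 in every refit without 1 library, and 15 with the title's line, where all 83 kept their sign. Myh7 turned negative with upper-quartile factors (-0.0111), voom (-0.0060), no filter (-0.0018), the title's line (-0.0337), without both conflicting libraries (-0.0392) and without all 3 libraries (-0.0837), and ranged from -0.0399 to 0.0690 without 1 library, with 5 refits below 0. Myh4 did so with voom (-0.26), the replicate block (-0.20) and without HCR running 2, and ranged from -1.20 to 0.54 without 1 library. The cause was not tested. Depth limits genes of a few CPM.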
